A study of Mus musculus with 56 samples.

Results

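The genes described are those of the cytosolic ribosomal proteins, the proteins that build the ribosomes of the cytoplasm, as measured in single cells of mouse colon tumors. They were chosen by symbol: protein-coding genes named Rpl or Rps with a number, with Rplp0, Rplp1, Rplp2 and Rpsa, while pseudogenes, mitochondrial ribosomal proteins and S6 kinases were left out. The rule found 84 genes among the 24410 gene IDs of the table, of which 52 encode proteins of the large subunit and 32 proteins of the small subunit. They lie on 19 chromosomes, with 4 on the X chromosome.

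The cells came from 1 male ApcMin/+ mouse, which carries a truncating allele of the Wnt pathway gene Apc and forms intestinal tumors. From an age of 10 weeks it drank 2% dextran sulfate sodium, an agent that wounds the lining of the colon, over 5 days, and 3 tumors taken at 12 weeks were mixed. Living cells with EpCAM and CD24 on their surface and without CD31 and CD45 were sorted singly, and cDNA in which 32 cycles of PCR had shown the stem cell receptor gene Lgr5 went on to sequencing. The series title concerns the transcription factor PROX1 and the quiescence of colon cancer stem cells. No group of untreated, normal or Lgr5-negative cells was analysed here, the cells cannot be traced to a tumor, and all 56 libraries form 1 group. The relations below are therefore descriptions across cells of 1 mouse, given as Spearman's rho with no p-value. The cells may also share a sorting plate, which their index labels do not give. Their unit is TPM, transcripts scaled to a fixed total after division by transcript length. It fixes the sum in each cell, so that a gene that takes more leaves less for the others.

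A ribosome joins a small subunit, which reads the mRNA, to a large subunit, which makes the peptide bond, and each ribosomal protein is normally present as a single copy per ribosome, apart from the paired stalk proteins. Making ribosomes is among the most costly tasks of a growing cell, and the mRNAs of these proteins are known to be translated together under control of mTOR through a pyrimidine tract at their start. In the intestine, ribosome production is known to be high in proliferating crypt cells and is driven by Myc downstream of Wnt signaling.

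Of the 56 libraries, 6 pairs had nearly the same values (Pearson's r 0.957 to 0.992, against at most 0.782 for any other pair) and each pair was averaged, which left 50 cells. The number of genes at 1 TPM or more per cell ranged from 1316 to 7234 with a median of 5902.5, and the read depth was unknown. The epithelial list was present in every cell, with 8 of 8 markers in the table and a summed level of 2206 to 18540 TPM, and Epcam and Cd24a were at 1 TPM or more in all 50. Of the 6 immune markers, Ptprc, which encodes CD45, and Cd3e reached 1 TPM in 0 cells. The macrophage genes Csf1r and Cd68 did so in 21 and 10 cells, with highest values of 18.4 and 243 TPM, and Cd79a and Itgam in 1 cell each. The summed level of the list ranged from 0 to 246 TPM with a median of 0.83. The endothelial sum was at most 13.3 TPM and the fibroblast sum at most 8.92 TPM.

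From the other 48 cells, 2 stood apart. The first had the fewest genes, 1316, and the pseudogene Gm10925 held 85.1% of its TPM. In the second, which is called defensin-high, defensin genes of Paneth cells held 76.0% of TPM. Ribosomal protein genes took 1.71% and 3.31% of TPM in these cells. Results are given over all 50 cells and again over the other 48.

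In the 48 cells, ribosomal protein genes held between 17.9% and 30.8% of all TPM, and the median over 50 cells was 24.1% (quartiles 22.4% and 26.8%, mean 23.99% ± 5.42, SD over cells). Large subunit genes held a median of 14.4% and small subunit genes 9.94%. The ratio of the former to the latter was narrow, from 1.35 to 1.72 with a median of 1.47 over the 48 cells. The 5 highest members of a cell made up a median of 22% of its ribosomal protein TPM. The median share was between 23.8% and 24.2% in each of the groups of cells formed by sequencing index.

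**Figure D1:**
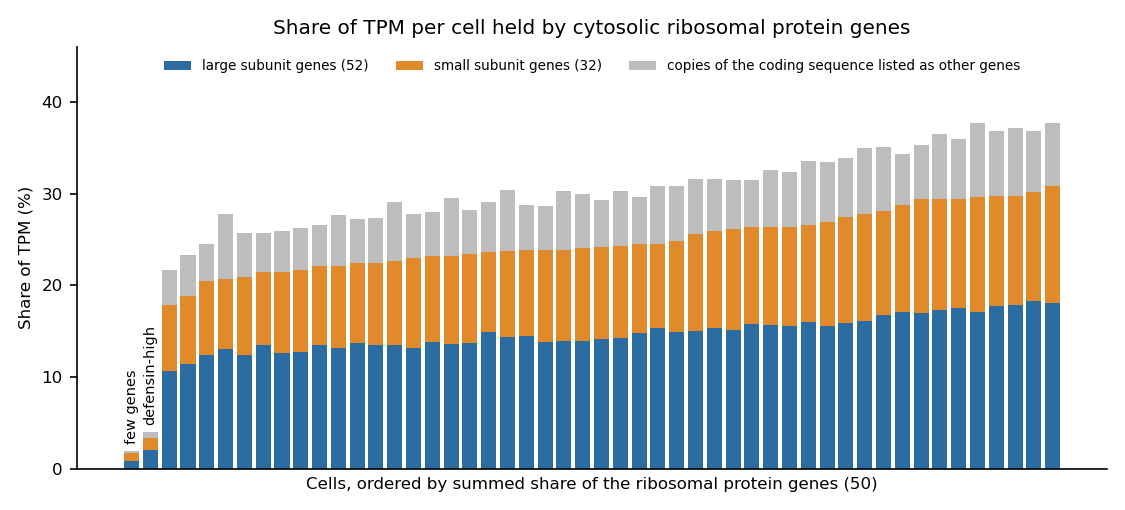
Share of TPM (%) per cell held by large subunit genes, small subunit genes and other listed genes that hold a copy of a member's coding sequence, stacked, for 50 cells ordered by the sum of the first pair. The 48 cells to the right have ribosomal protein shares of 17.9% to 30.8%, while the few-genes and defensin-high cells have 1.71% and 3.31%.

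Detection was close to complete. Of the 84 genes, 67 were at 1 TPM or more in every cell, against 1.18% of all gene IDs in the table (287 of 24410), and 79 were so in all 48 cells. In the few-genes cell 17 members were below 1 TPM. Median levels were at or above 1000 TPM for 62 members and at or above 100 TPM for 79. TPM are scaled by transcript length. Levels are set side by side between genes on that scale, within the limits of copies and of coding length given below, since longer members were listed higher.

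The highest levels belonged to proteins of quite different places in the ribosome. Rplp1, an acidic protein of the stalk that recruits elongation factors, had a median of 13335 TPM, with a lowest value of 5834 TPM in the 48 cells and a highest of 19771 TPM. Rps2, a small subunit protein near the mRNA entry, had a median of 13259 TPM and ranged from 4852 to 25306 TPM. Their quartiles overlapped (10920 to 15392 TPM for Rplp1, 10834 to 16581 TPM for Rps2), so their order is not separated by the spread over cells. Next came Rpl41, the shortest ribosomal protein, at a median of 8608 TPM, Rpl10, which joins the large subunit late in its maturation, at 8516 TPM, and Rplp0, the base of the stalk, at 8301 TPM. The third stalk gene, Rplp2, was far lower than its partner Rplp1 although their proteins form pairs, at a median of 1285 TPM. Its values of 628 to 2132 TPM in the 48 cells did not reach the lowest Rplp1 value.

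**Figure D2:**
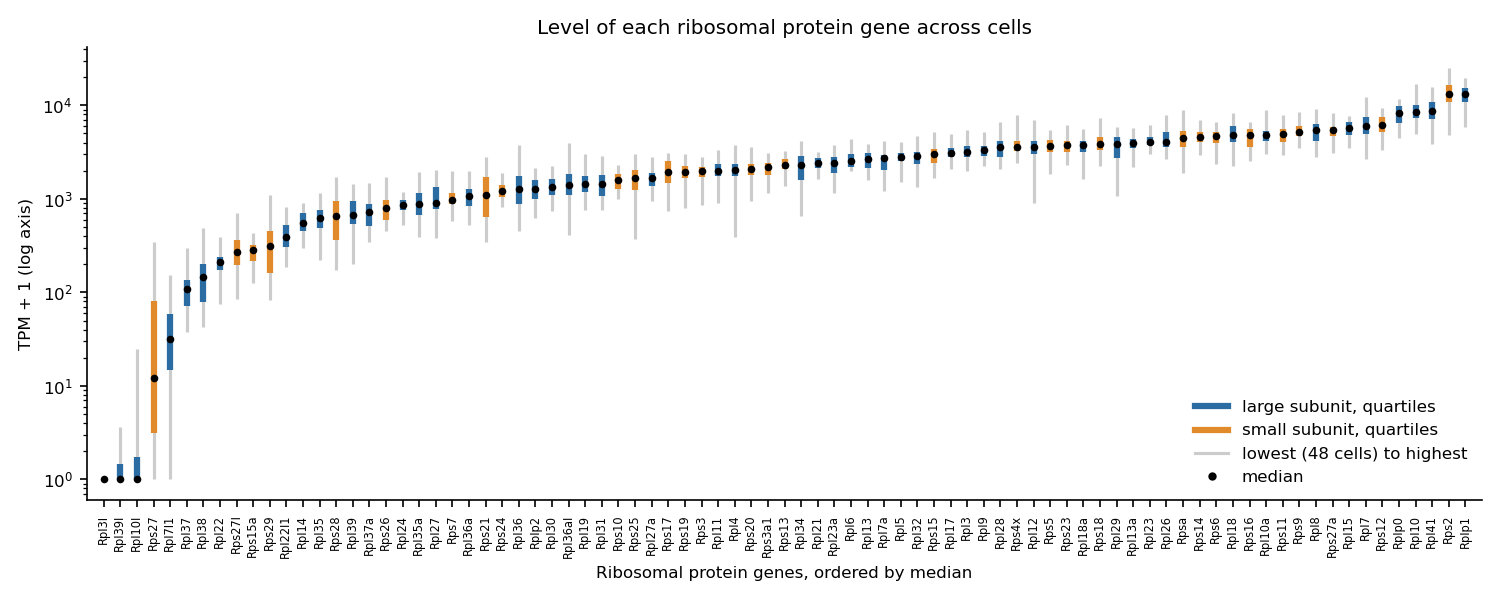
Level of 83 of the 84 genes as TPM + 1 on a log axis, ordered by median. Points are medians and colored bars quartiles over 50 cells, and grey lines run from the lowest of the 48 cells to the highest cell. Medians rise from genes at 0 (Rpl3l, Rpl39l, Rpl10l) to Rps2 and Rplp1 (13259 and 13335 TPM), and Rps27 and Rpl7l1 have the widest bars among the detected genes.

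The lowest members seen in at least 90% of cells were Rpl7l1, Rpl37, Rpl38, Rpl22 and Rps27l. Rpl38, known from its part in translating Hox mRNAs in the embryo, had a median of 144 TPM and ranged from 41.7 to 487 TPM in the 48 cells. Rpl37 had a median of 109 TPM and ranged from 36.9 to 297 TPM. Their ranges overlapped, so their order is not separated by the spread over cells.

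The 4 genes below 1 TPM in more than 10% of cells were 3 tissue-restricted paralogs and Rps27. Rpl3l, the striated muscle form of Rpl3, was seen in 0 of 50 cells, with a highest value of 0.09 TPM. Rpl39l and Rpl10l, known for their expression in testis, were seen in 5 and 12 cells, with highest values of 2.60 and 23.8 TPM, beside medians of 664 TPM for Rpl39 and 8516 TPM for Rpl10. The other paralogs were seen in most cells. Rpl22l1 had a median of 394 TPM and ranged from 187 to 808 TPM in the 48 cells, above its parent Rpl22 at 212 TPM (73.7 to 394 TPM). Rpl36al had 1406 TPM and its near copy Rpl36a 1077 TPM, with ranges that overlapped. Rps27l, a paralog of Rps27 that p53 induces, had 267 TPM (83.4 to 707.7 TPM), and Rpl7l1, a nucleolar relative of Rpl7 with a part in large subunit assembly, had 30.9 TPM and was at 0 in 2 cells. Rps4x, on the X chromosome, and Rpl3, the parent of Rpl3l, were at 3566 and 3137 TPM.

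Some members listed low have a nearly identical copy listed elsewhere at a higher level. Coding sequences of all 84 members were compared with the transcripts of every other gene in the table, and 22 members had a stretch of at least 60 bases at 95% identity or more in another gene. For 13 members the match covered at least 80% of the coding sequence. Both counts include matches on the opposite strand and genes that overlap the member's own locus. Among the 13, the match of Rpl13a overlaps its locus, and those of Rps23 and Rpl7a lie on the opposite strand. Only 4 of the 300 pseudogenes named after ribosomal proteins in the annotation are in the table. The following stretches are taken from such pairs. Where a pair differs, its whole match is closer (97.4% for Rps26 and Gm6654), since these stretches hold the most differences in 60 bases. Each is read along the coding strand, 5′ to 3′, and capitals mark bases that differ within the pair.
Rps15a: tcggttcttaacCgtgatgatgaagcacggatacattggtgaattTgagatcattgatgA
Rps15a-ps6: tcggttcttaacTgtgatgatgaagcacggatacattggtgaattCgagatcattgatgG
Rpl14: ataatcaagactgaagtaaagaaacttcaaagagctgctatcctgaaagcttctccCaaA
Rpl14-ps1: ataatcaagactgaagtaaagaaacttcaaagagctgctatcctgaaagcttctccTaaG
Rps26: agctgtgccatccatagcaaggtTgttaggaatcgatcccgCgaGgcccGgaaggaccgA
Gm6654: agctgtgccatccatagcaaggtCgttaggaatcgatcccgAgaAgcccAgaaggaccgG
Rpl37a: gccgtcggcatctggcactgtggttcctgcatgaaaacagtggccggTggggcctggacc
Mir682: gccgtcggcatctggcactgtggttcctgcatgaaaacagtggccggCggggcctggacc
Rps27 and Rps27rt: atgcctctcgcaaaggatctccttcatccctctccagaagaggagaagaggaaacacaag

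The stretches cover coding bases 105 to 164 of Rps15a, 364 to 423 of Rpl14, 226 to 285 of Rps26, 151 to 210 of Rpl37a and 1 to 60 of Rps27. Over its whole coding sequence of 252 bases Rps27 is the same as Rps27rt, an intronless gene on chromosome 9 (114982366 to 114982739, minus strand, GRCm38). Rps27 itself lies on chromosome 3 (90212522 to 90213651, minus strand). Rps27 reached 1 TPM in 38 cells and had a median of 11.2 TPM and a highest value of 344 TPM, and Rps27rt had a median of 6494 TPM and was higher in all 50 cells. The sum of the pair had a median of 6607 TPM and ranged from 1964 to 16142 TPM in the 48 cells. Reads within this coding sequence cannot be told apart, so the level of Rps27 by itself is uncertain.

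Other pairs also had the copy listed higher, but their sequences differ at some bases, so not all of their reads are alike. Rps15a, on chromosome 7 (118104372 to 118116188, minus strand), had a median of 280 TPM, while Rps15a-ps6, a processed pseudogene on chromosome 11 (6172644 to 6173036, minus strand) with 98.7% identity, had 14915 TPM. With Rps15a-ps4 the sum came to 17252 TPM, which is above every member listed by itself. Rpl14, on chromosome 9 (120571444 to 120574654, plus strand), had 556 TPM beside 14541 TPM for Rpl14-ps1 on chromosome 7 (45324965 to 45325617, plus strand, 98.9% identity). These copies held a median of 98.4% and 96.4% of their sums, and these shares ran from 98.1% to 98.9% and 95.3% to 97.7% over the 48 cells. Shares this near the whole have little room to vary, so their narrow range does not show a fixed split between member and copy. Rps19, whose loss causes Diamond-Blackfan anemia in humans, had 1958 TPM beside 8837 TPM for Rps19-ps3. Rps26 had 790 TPM beside 4999 TPM for Gm6654, a processed pseudogene on chromosome 6 (146647241 to 146647588, minus strand). Rpl37a had 715 TPM, and the microRNA gene Mir682 on chromosome 13 (75645046 to 75645141, plus strand), whose 96 bases match Rpl37a at 99.0%, was listed at 6204 TPM. TPM divide by transcript length, and the coding sequence of Rpl37a alone has 276 bases, so these levels compare unlike lengths. Rpl22l1 and Rpl37, at 394 and 109 TPM, stood beside Gm15421 at 3404 TPM and Rpl37rt at 620 TPM.

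Copies that cover at least 80% of a coding sequence and run in its direction held a further median of 5.76% of TPM per cell, and with them the share of the 84 genes rose to a median of 30.1% (21.7% to 37.7% in the 48 cells). The members with copies listed above them were therefore described as uncertain in level. In 49 or 50 of 50 cells the copy was the higher of the pair for Rps15a, Rpl14, Rps19, Rps27, Rpl37a, Rps26, Rpl22l1 and Rpl37. Mir682 is shorter than the coding sequence of Rpl37a, so their order in TPM and their sum mix unlike lengths. Spearman's rho with the mean of the other members was 0.66 for Rpl37a and 0.67 for its sum with Mir682, 0.67 and 0.68 for Rps19, 0.66 and 0.65 for Rps26, and 0.32 and 0.33 for Rpl22l1. It was 0.68 for Rps15a and 0.73 for its sum, and 0.17 and 0.24 for Rpl14. For Rpl37 it moved from 0.57 to 0.72. For Rps27 it moved from 0.30 to 0.67, and the SD of its level relative to the members' mean fell from 2.68 to 0.72 on the log2 scale.

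Across cells the members went up and down together to a moderate degree. Levels were taken as log2(TPM + 1), and the mean was formed over the 82 members seen in at least 20% of cells. The median rho of a member with the mean of the others was 0.56, and 0.51 in the 48 cells. Over 3321 pairs of members the median rho was 0.33 with 91.7% of pairs positive, and 0.24 with 83.7% positive in the 48 cells, so part of the agreement came with the 2 cells that stand apart. Of all 9166 genes seen in 20% of cells, 10.7% had a rho of 0.3 or more with the members' mean, and 0.960% had -0.3 or less. Of the 82 members 69 and 0 did, to which their own part in the mean adds.

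The steadiest members, by SD of the log2 level relative to the members' mean, were Rps12 (0.23), Rps16 (0.25), Rps23 (0.26), Rps3 (0.30) and Rps24 (0.31). Over the 48 cells the lowest values included Rpl23 (0.20), Rps23 (0.21) and Rps13 (0.22), and Rps24 and Rps12 had 0.23, so the order among the steadiest genes depended on the 2 cells. Rps12 had a median of 6147 TPM (3341 to 9462 TPM in the 48 cells) and also the highest rho with the others, 0.87. The members that departed most, besides Rps27, were Rpl7l1 (SD 1.72), Rps29 (0.91), Rps28 (0.90), Rpl36 (0.90) and Rpl9 (0.85). Rps29 ranged from 81.6 to 1102 TPM in the 48 cells around a median of 313 TPM. The value of Rpl9 rested on the few-genes cell, where it was listed at 0, and was 0.28 without the outlying cells, while that of Rps29 was 0.90.

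The members least like the rest were Rpl7l1 (rho with the others -0.03), Rpl10l (-0.00), Rpl7 (0.08), Rpl10 (0.08) and Rpl14 (0.17). Rpl7 and Rpl10 were nevertheless abundant, so low detection does not mark them. Rpl7 had a median of 6025 TPM and ranged from 2645 to 12140 TPM in the 48 cells, and Rpl10 ranged from 4987 to 16748 TPM. Their rho with the others was -0.05 and -0.04 in the 48 cells.

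The strongest pairs in the 48 cells were Rps29 with Rpl38 (rho 0.91), Rps29 with Rps21 (0.90), Rps29 with Rps28 (0.88) and Rps21 with Rpl37a (0.87). All 5 genes are among the 20 members with the shortest coding sequences. The lowest pairs were Rpl6 with Rpl7 (-0.44), Rpl14 with Rpl34 (-0.43) and Rpl10 with Rps28 (-0.40). Subunit did not sort these pairs, since the first group held proteins of both subunits. Ordered by the length of the coding sequence, the pairwise values formed blocks, and this ordering was chosen after the values had been seen.

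**Figure D3:**
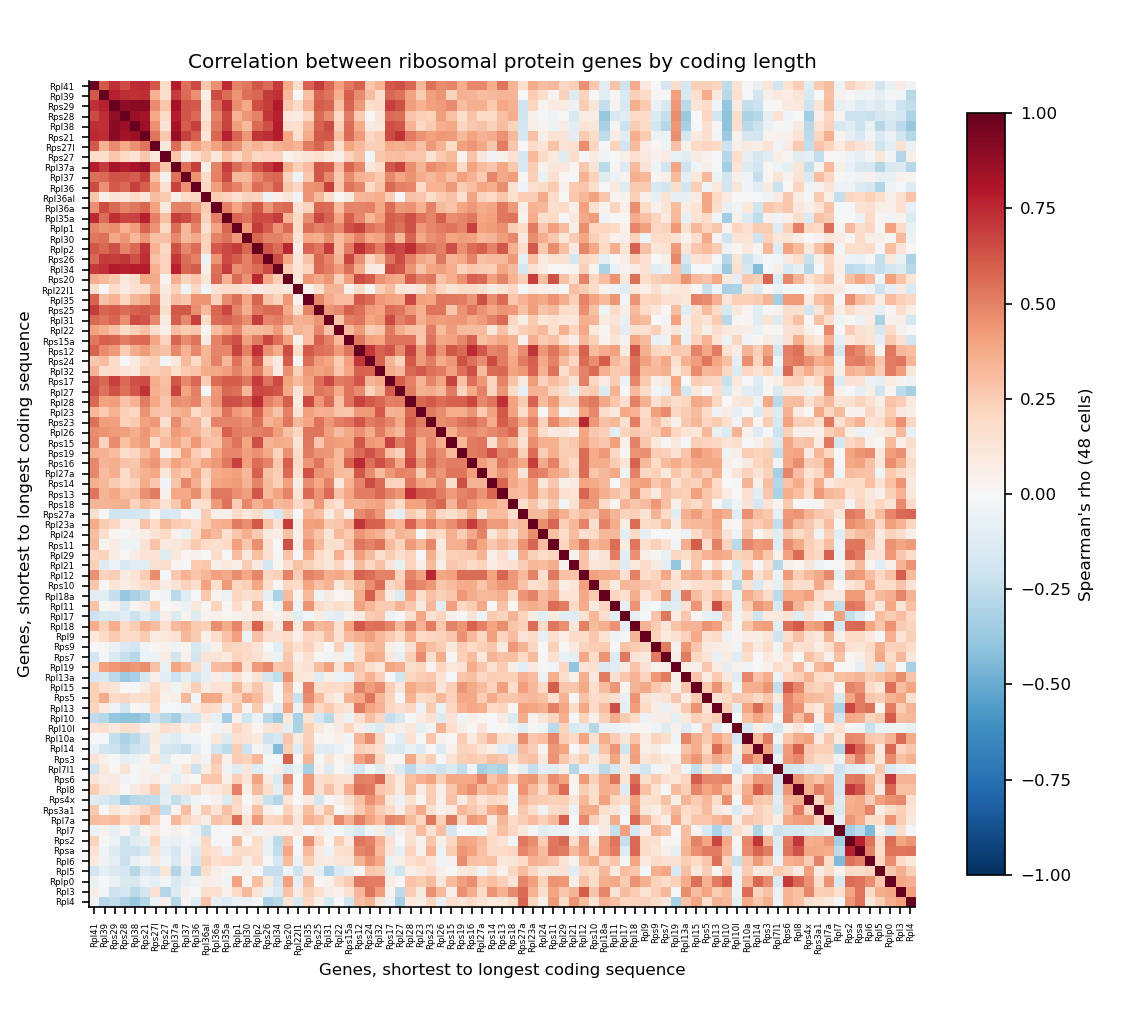
Spearman's rho over the 48 cells between each pair of 81 of the 82 members seen in 20% of cells, with genes ordered from the shortest to the longest coding sequence on both axes. The upper left block of short genes is mostly red (median 0.50 within the 20 shortest), the lower right block paler (0.27 within the 20 longest), and the corners between them near white or blue (0.01).

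The 20 members with the shortest coding sequences (75 to 357 bases) had a median pairwise rho of 0.56, and the 20 longest (633 to 1257 bases) 0.35, while pairs of a short and a long member had 0.10. In the 48 cells these values were 0.50, 0.27 and 0.01. The mean of the short members and the mean of the long members had a rho of 0.16 with each other, and 0.05 in the 48 cells, although both consist of ribosomal protein genes. The short mean minus the long mean ranged from -2.39 to -0.38 on the log2 scale, with a median of -1.14 and an SD of 0.52. Longer members were listed at higher TPM (rho over 82 members of coding length and median TPM 0.47) and had a lower rho with the other members (-0.64). Among other genes, the short ones gave a weaker picture of the same kind and the long ones did not. The mean of 118 other genes with coding sequences as short and a median of at least 100 TPM had a rho of 0.52 with the short members and 0.28 with the long ones (0.46 and 0.18 in the 48 cells). Taken singly, these short genes had a median rho of 0.21 with the short members and 0.09 with the long ones. For 296 other genes as long as the long members the medians were 0.14 and 0.08. The part of transcript length in how these cDNAs were read was not tested.

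Cells with more mitotic transcripts had a higher ribosomal protein share. The mean log2 level of 30 G2/M genes, among them Mki67 and Top2a, had a rho of 0.58 with the summed share and 0.48 with the members' mean over 50 cells. In the 48 cells these values were 0.53 and 0.41. By sequencing index, the rho with the members' mean was 0.70 for i7 indexes N704 to N707 (32 cells), 0.51 for N708 to N710 (18 cells), 0.43 for i5 indexes N502 to N505 (26 cells) and 0.43 for N506 to N517 (27 cells). In 3 cells the averaged libraries carried an index of each i5 group, and these were used in both. Of the 30 G2/M genes only 20 were seen in at least 20% of cells, and their median rho with the members' mean was 0.28. Taken singly, Mki67 and Top2a were seen in 14 and 18 cells and had a rho of 0.20 and 0.37 with the members' mean. The most widely seen, Kif11, Cks2 and Plk1 (48, 41 and 29 cells), had 0.37, 0.57 and 0.53. Pearson's r of the G2/M mean with the members' mean was lower than rho, 0.23, and 0.22 without the 2 cells farthest in the G2/M mean. The summed immune markers moved against the members' mean (rho -0.36, and -0.44 in the 48 cells). This was not particular to them. The enteroendocrine sum had -0.38 and -0.43, the Paneth sum -0.30 and -0.34, and the colonocyte sum 0.48 and 0.42. The enteroendocrine sum was Fev alone, since Chga, Chgb and Neurod1 were at 0 in all 50 cells. The colonocyte sum was nearly Car1 alone, at most 7.69 TPM. Car4, Aqp8 and Krt20 were at 0 in all 50 cells, and Slc26a3 was at most 0.17 TPM. These values therefore describe single genes and not cell types. The sums of the remaining cell types lay between -0.12 and 0.21 over 50 cells. The part of such transcripts in the members' mean was not tested. The number of genes per cell moved with the members' mean (rho 0.33), and partial rho given that number was 0.37. The TPM of Gm10925 moved against it (rho -0.44), and with Gm10925 taken out of the TPM the rho with the G2/M mean was 0.54.

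**Figure D4:**
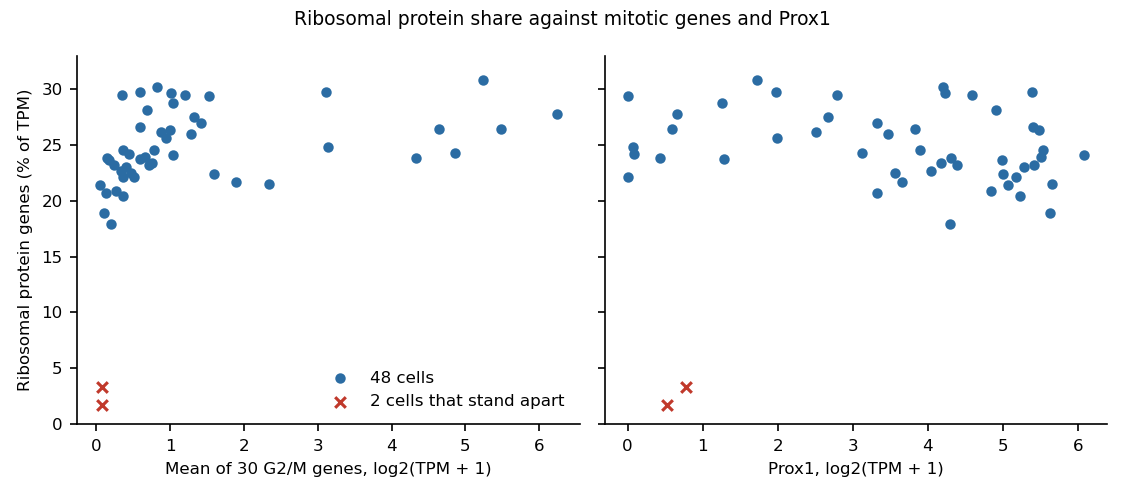
Ribosomal protein share of TPM (%) against the mean log2(TPM + 1) of 30 G2/M genes (left) and against the log2(TPM + 1) of Prox1 (right), with 48 cells as points and the 2 cells that stand apart as crosses. The lowest of the 48 cells, at 17.9% and 18.9%, lie at the low end of the G2/M mean, and the 8 cells above 3 on that axis lie between 23.8% and 30.8% (rho 0.58), while the relation to Prox1 is weak and falls from left to right (rho -0.21).

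Single members followed the G2/M mean in unequal degree. Of the 82 members, 43 had a rho of 0.3 or more with it, against 15% of the 9166 genes, and 0 had -0.3 or less, against 1.54%. The median over members was 0.32, against 0.10 over all genes and 0.12 over the 643 other genes with a median of at least 100 TPM. In the 48 cells 30 members reached 0.3, against 11% of genes, and 1 member, Rpl7, reached -0.3, against 4.72%. Both subunits took part, with 25 of 50 large and 18 of 32 small subunit members at 0.3 or more.

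The members highest by this measure were Rps2 (rho 0.74), Rpsa (0.70), Rpl14 (0.64), Rpl18 (0.61) and Rpl23a (0.60). Rpsa, a small subunit protein also known as the laminin receptor precursor, had a median of 4460 TPM and ranged from 1910 to 8871 TPM in the 48 cells. Rps2 and Rpsa bind near each other on the small subunit. For Rps2 the rho was positive in 14 of 14 alternatives and ran from 0.37 (Pearson's r) to 0.81 (i7 N704 to N707), and that of Rpsa from 0.37 to 0.73. Taken relative to the members' mean in each cell, so that a shift shared by the members drops out, the values in the 48 cells were 0.56 for Rps2, 0.51 for Rpsa, 0.47 for Rpl18, 0.46 for Rps12 and 0.45 for Rpl23a.

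At the other end stood Rpl7 (-0.16), Rpl17 (-0.15), Rpl7l1 (-0.15), Rpl34 (-0.02) and Rpl10l (0.00). Rpl17, which lines the exit tunnel of the large subunit, had a median of 3088 TPM and ranged from 2059 to 4947 TPM in the 48 cells. Relative to the members' mean, Rpl17 and Rpl7 had a rho of -0.49 and -0.42 with the G2/M mean in the 48 cells. Their values in the i7 groups were near 0 or negative, -0.22 and 0.05 for Rpl7 and -0.11 and -0.06 for Rpl17.

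**Figure D5:**
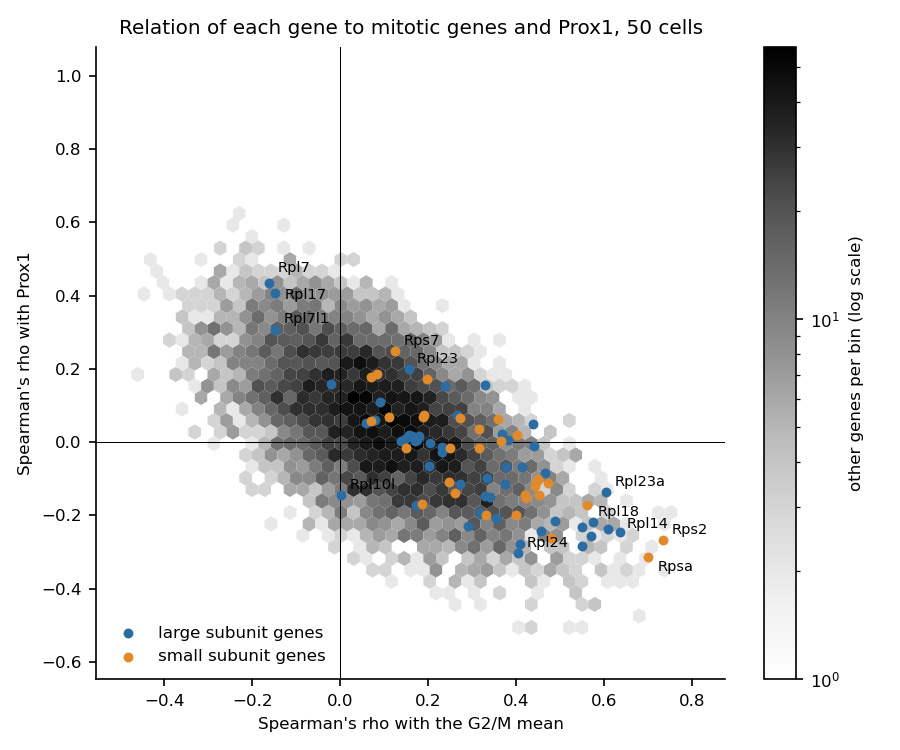
Spearman's rho of each gene with the G2/M mean (horizontal) and with Prox1 (vertical) over 50 cells. Colored points are members of the large and small subunits and grey bins hold the other genes seen in 20% of cells, shaded by number. Members run from Rpl7 and Rpl17 at the upper left to Rps2 (0.74 and -0.27) and Rpsa (0.70 and -0.31) at the lower right, along the slope of the other genes.

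With the mean of 22 S phase genes the members' relation was weaker. The rho of the members' mean was 0.27, and 0.17 in the 48 cells, and partial rho given genes per cell was 0.07. Of the 82 members, 20 had a rho of 0.3 or more, against 15% of all genes, and 0 had -0.3 or less, against 0.764%. Rpsa (0.53), Rpl14 (0.46) and Rps2 (0.44) were again highest.

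With Prox1 the members' mean had a rho that was negative throughout but varied in size, while Pearson's r had the opposite sign. Prox1 reached 1 TPM in 41 cells, and its median was 14.7 TPM and its highest value 66.8 TPM. The rho of the members' mean with it was -0.12 over 50 cells and -0.24 in the 48, while Pearson's r was 0.23. With Prox1 taken from TPM without ribosomal protein genes, rho over 50 cells was -0.079, the weakest of the alternatives. The 2 cells that stand apart were lowest in the members and had 0.44 and 0.72 TPM of Prox1. Within groups of cells it was -0.16 and -0.48 for the i7 groups and -0.28 and -0.13 for the i5 groups. The summed share gave -0.21 and, in the 48 cells, -0.33. Over 50 cells 2 members had a rho of -0.3 or less, against 3.26% of all genes, and 3 had 0.3 or more, against 8.59%. In the 48 cells 18 members were at -0.3 or less, against 6.36%, and 2 at 0.3 or more, against 6.30%. The count of negative members thus depended on 2 cells, and without the few-genes cell or the defensin-high cell alone it was 10 and 8.

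Among single members Rpl7 (0.44), Rpl17 (0.41) and Rpl7l1 (0.31) were highest with Prox1, followed by Rps7 (0.25) and Rpl23 (0.20). Rpsa (-0.31), Rpl24 (-0.30), Rpl35 (-0.28), Rpl27a (-0.28) and Rps2 (-0.27) were lowest. Rpl24 is the gene mutated in Belly spot and tail mice. For Rpl7 and Rpl17 rho was positive in 14 of 14 alternatives, from 0.11 to 0.50 and from 0.02 to 0.50, with the lowest values in the i7 group N708 to N710 for both. Prox1 and the G2/M mean themselves had a rho of -0.24, so the order of members by one is not independent of their order by the other.

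Genes that work with the ribosome were set beside the same share of all genes, 15% at a rho of 0.3 or more with the G2/M mean and 11% in the 48 cells. Of 78 genes for mitochondrial ribosomal proteins, 29 reached 0.3 (median 0.23), and 18 did in the 48 cells, and their summed share had a median of 0.738% of TPM. Of 20 ribosome biogenesis genes 8 reached 0.3 (median 0.26), led by Npm1, a nucleolar chaperone, at 0.62, with Polr1a, the largest subunit of RNA polymerase I, at 0.48, and 6 did in the 48 cells. Of 24 translation factors 3 did (median 0.17), which is near the share of all genes: Eif5a at 0.56, Eef1d at 0.35 and Eef1b2 at 0.33. Without the 2 cells 1 did, Eif5a at 0.50, while Eef1d and Eef1b2 had 0.28 and 0.25. None of the 3 lists had a gene at -0.3 or less. Eef1a1, the elongation factor that brings aminoacyl-tRNA to the ribosome, was as abundant as the top members at a median of 12384 TPM and had a rho of -0.06 with the members' mean. The means of the mitochondrial, translation and biogenesis lists had a rho of 0.45, 0.50 and 0.46 with the members' mean, and 0.38, 0.43 and 0.39 in the 48 cells. Rack1, a scaffold on the small subunit, had a rho of 0.33 with the G2/M mean. Rps27a, which encodes a small subunit protein fused to ubiquitin, had 0.40, and Fau, whose product joins a small subunit protein to a ubiquitin-like one, had -0.05.

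The start sites of the genes carry the pyrimidine tract in part. RefSeq promoters (GRCm38.p6) were matched for 64 members, and 26 of them (40.6%) held a C followed by at least 5 pyrimidines beginning within 5 bases of the annotated start on the gene's strand. The same motif was found for 3229 of 27025 genes with a promoter (11.9%). TATAAA between 40 and 20 bases before the start was found for 1 member (1.56%) and for 2.41% of all genes. The stretches of 30 bases around the start show members with the tract in capitals and, for Rpsa and Rpl41, without it.
Rpl15: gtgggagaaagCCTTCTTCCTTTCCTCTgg
Rps6: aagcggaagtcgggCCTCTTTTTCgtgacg
Rpl18: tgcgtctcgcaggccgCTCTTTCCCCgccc
Rpl28: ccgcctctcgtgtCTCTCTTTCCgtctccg
Rpsa: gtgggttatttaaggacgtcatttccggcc
Rpl41: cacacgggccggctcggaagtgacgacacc

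These lie at chr14:18270972-18271001, chr4:86857353-86857382 (both minus strand), chr7:45718056-45718085, chr7:4792950-4792979, chr9:120127751-120127780 (plus strand) and chr10:128549154-128549183 (minus strand). Members with the motif had a median rho with the other members of 0.63 and those without it 0.45, and their medians with the G2/M mean were 0.28 and 0.26. No filter on detection was used here, and those without it include Rpl3l, Rpl39l and Rpl10l, which few or no cells held. The part of the motif in these differences was not tested. A missing match says only that these letters are not at the annotated start.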

How the data were processed

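Single-cell cDNA libraries were read as a table of TPM that the authors deposited for 24410 Ensembl gene IDs in 56 libraries. RSEM 1.2.31, Bowtie2 2.2.9, bcl2fastq 1.8.4 and build GRCm38.p4 are named, per the submitters' processing notes. Their settings, annotation and strand use were not given in the sources used here. The deposited TPM carry no read depth, so precision per value is unknown, and a gene at 0 is only listed at 0. Symbols and coordinates came from GENCODE M21 (GRCm38), which matched 24235 IDs and left 175 without a symbol. Columns were matched to samples by index pair.

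Library pairs that correlated above 0.9 (Pearson's r of log2(TPM + 1) over genes that 20% of libraries held at 1 TPM) were averaged. Relations are Spearman's rho on log2(TPM + 1), with a pseudocount of 1, over cells of 1 mouse and without tests. Counts past a rho of 0.3 are set beside the same share over 9166 genes seen (1 TPM or more) in 20% of cells. Members and gene lists were chosen with earlier results of these data known. Genes were named by rule: members below 1 TPM in over 10% of cells, the 5 highest and 5 lowest by median and by spread among those seen in 90% of cells, the 5 highest and lowest by rho with the G2/M mean and Prox1, the 5 lowest by rho with the other members, paralogs, the 10 highest and 5 lowest other genes by rho with the members' mean, and Gm10925, Prox1, Mki67, Top2a, Myc and Eef1a1. Other genes, the split by coding length (the single split made), the sums with copies and leaving out the defensin-high cell, alone or with the few-genes cell, were chosen after the values were seen.

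Copies were sought with BLAST+ 2.17.0, from coding sequences to transcripts of other listed genes (95% identity, 60 bases). Motifs were sought in RefSeq promoters. Results of 1 member are counted but not reported by name or drawn where genes are named. The rho step was tested on simulated data. Scripts ran in Python 3.11.15 with SciPy 1.17.1, pandas 2.3.3, numpy 2.4.6 and matplotlib 3.10.9.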

Additional observations from a re-analysis of the deposited data

How the results depend on the processing

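No paired analysis was possible because all libraries belong to 1 group. A rho counts as moved here when it changed by 0.1 or more, and a count when it changed by more than 1.5 times. For the median share the limit was the SD over 50 cells, 5.42. By it the share moved under none of 10 alternatives, from 23.83% to 28.14%. By the SD over the 48 cells, 3.18, it would have moved with Gm10925 taken out (27.96%) and with the listed pseudogenes named after members added (28.14%). The share with full copies, 30.1%, was not among the 10. The number of members detected in every cell was 44 at a threshold of 10 TPM, in place of 67. The rho of the members' mean with the G2/M mean, 0.48, was 0.35 with all 56 libraries as cells, 0.70 in i7 indexes N704 to N707, 0.23 as Pearson's r, 0.37 given genes per cell and 0.58 for the summed share, and moved under none of the other 12 alternatives. With the S phase mean, 0.27, it was 0.43 and 0.38 in the i7 groups, 0.16 in i5 indexes N506 to N517 and 0.066 given genes per cell. With Prox1, -0.12, it was -0.24 without both outlying cells, -0.48 in i7 indexes N708 to N710, -0.28 in i5 indexes N502 to N505, and 0.23, of opposite sign, as Pearson's r. The 43 members at 0.3 or more with the G2/M mean were 7 by Pearson's r. The 2 members at -0.3 or less with Prox1 were 10 without the few-genes cell, 8 without the defensin-high cell, 18 without both, 5 and 28 in the i7 groups, 15 in i5 indexes N502 to N505, 0 by Pearson's r, 1 given genes per cell, 1 without Gm10925 and 0 with Prox1 from TPM without ribosomal protein genes. The median rho of a member with the others, 0.56, was 0.93 by Pearson's r and 0.43 without Gm10925. The cause of these changes was not tested. With 1 mouse and unknown depth, spread between cells cannot be told apart from counting error.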

Other observations

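Of 12 regulators of ribosome production 10 were seen in 20% of cells, and 1 of them, Mtor, the kinase that controls translation of these mRNAs, had a rho of 0.3 or more with the G2/M mean (0.31), against 15% of all genes. Mtor had 0.29 in the 48 cells, where 0 of the 10 reached 0.3. Myc, the transcription factor that drives ribosome production, was seen in 34 of 50 cells at a median of 12.2 TPM with a highest value of 366 TPM. Its rho was 0.11 with the members' mean (0.06 in the 48 cells) and -0.02 with the G2/M mean. With the members' mean only Eif4ebp2, a repressor of cap-dependent translation seen in 12 cells, reached 0.3 (0.33), which is near the 10.7% of all genes. With Prox1, Rps6kb1, which encodes an S6 kinase, had 0.47 and Mdm2, the p53 ligase that free ribosomal proteins bind, had 0.39, while Eif4ebp1 had -0.30.

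Among genes that are not ribosomal protein genes, those most like the members' mean over 50 cells included hosts of ribosomal protein sequence. Wdr89, a protein-coding gene on chromosome 12, had the highest rho, 0.82 (0.79 in the 48 cells), at a median of 78.9 TPM, and its transcript holds all 345 coding bases of Rplp2 at 99.4% identity. Gm26510, a long noncoding RNA with a rho of 0.76 and a median of 887 TPM, holds 96 bases of Rps24 on the opposite strand, and Nphs1, the gene of the kidney protein nephrin, with 0.70 and 154 TPM, holds 185 bases of Rps12 on the opposite strand. The part of these stretches in the values was not tested. For Btbd9 (0.78), Taf1c (0.76), Gm12338 (0.75), Pdss2 (0.75), Adgrd1 (0.74), Cox7c (0.73) and Sema5b (0.72) no such stretch was found. Cox7c encodes a subunit of cytochrome oxidase. Lowest were Stxbp4 (-0.61), Tmem206 (-0.54), Atp1b4 (-0.53), Fmo6 (-0.53) and Gm28305 (-0.51).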
